A study of Mus musculus with 9 samples.

Results

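RNA from aging RGCs that had been kept in USCs medium was compared with RNA from normal RGCs, and the comparison rests on 6 of the 9 libraries of the study, 3 in each of these groups. All 12145 genes that passed a low-count filter were compared, out of 22322 genes in the deposited table. Normal RGCs are mouse cells labelled as retinal ganglion cells and as wild type, which were bought from a company and grown in high-glucose medium with fetal bovine serum. Aging RGCs were grown in the same way and exposed to D-galactose, a sugar whose excess is used to bring on features of aging in cultured cells. The medium-treated RGCs were exposed to D-galactose and afterwards kept in medium conditioned by USCs, the mesenchymal stem cells that grow out of human urine, which were no longer present. Such medium holds whatever the cells released together with the medium they grew in, and is not a purified preparation of exosomes. The paper grew USCs in a purchased medium for urine stem cells, and no library of RGCs in that medium without USCs is analysed here. What USCs released and the medium they grew in therefore cannot be told apart. The 3 replicates of a group were wells of 1 purchased cell source, so p-values measure the spread between these wells, which may be technical. A library of normal RGCs kept in USCs medium is not analysed here, so in this comparison D-galactose and the medium cannot be told apart. The 3 aging libraries came from separate cultures that did not receive USCs medium, and their values are given beside those of the other groups without a time order.

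Retinal ganglion cells are the neurons that carry the output of the retina through the optic nerve, and they are known by transcription factors of the Pou4f family, by Rbpms and by neurofilaments. Cultured cells that age stop dividing, release inflammatory cytokines and matrix-degrading enzymes, and change how they handle lipids and amino acids. Cytokines of the interleukin-6 family act through receptors that contain Il6st or Osmr, switch on the transcription factor Stat3, and raise acute-phase genes such as Lcn2 together with Socs3, which dampens the signal.

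The defining neuronal genes were largely absent from all libraries. Of 18 retinal ganglion cell markers, 13 lay under 1 FPKM, a unit scaled by transcript length and library size, in every library, and Pou4f2, Pou4f3, Atoh7 and Stmn2 had a count of 0 in all 9. Thy1 had 2 counts over the 9 libraries. Rbpms, an RNA-binding protein of ganglion cells, was present at 33.1, 30.5 and 31.0 FPKM in normal and at 23.3, 21.9 and 25.8 FPKM in medium-treated RGCs. Some mesenchymal and epithelial genes were far more abundant, with the intermediate filament gene Vim at 778 to 891 FPKM in the normal and medium-treated libraries and the keratin gene Krt8 at 206 to 228 FPKM in normal and 341 to 361 FPKM in medium-treated RGCs. Neither of those lists was present throughout, since 10 of 17 epithelial markers, among them the cadherin gene Cdh1, and 4 of 17 mesenchymal markers, among them the collagen gene Col1a2, were under 1 FPKM in every library. The name RGCs is therefore kept here as the label of the cultures. Expected counts, which are estimated read numbers, summed to between 19814236 and 22342283 in the normal and between 20238813 and 21054300 in the medium-treated libraries. Levels are given below as CPM, counts scaled to a common library size after TMM factors.

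Medium-treated RGCs differed from normal RGCs in 816 DEGs, which were genes with a Benjamini-Hochberg adjusted p under 0.05 by edgeR's quasi-likelihood test and at least a 2-fold difference. Of the genes tested, 179 were upregulated (1.47%) and 637 were downregulated (5.24%) in the medium-treated RGCs. Without the fold threshold 3716 genes were higher (30.6%) and 3634 were lower (29.9%), so most differences were small and 6534 of them stayed under 2-fold. Of the 179 upregulated DEGs 60 differed by at least 4-fold, and of the 637 downregulated DEGs 129 did. The 3 medium-treated libraries lay wholly above or below the 3 normal libraries in 7748 genes (63.8%), 781 of them DEGs. The balance between higher and lower genes depended on the scaling of the libraries. With TMM factors 50.6% of the genes past the adjusted p were higher, and without them 34.7% were (2593 higher and 4889 lower), while the median log2 fold change of all genes moved from -0.01 to -0.11. Directions of small differences are therefore relative to this median. Counts of higher and lower members in the gene lists below are to be read beside the 30.6% higher and 29.9% lower over all genes.

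**Figure D1:**
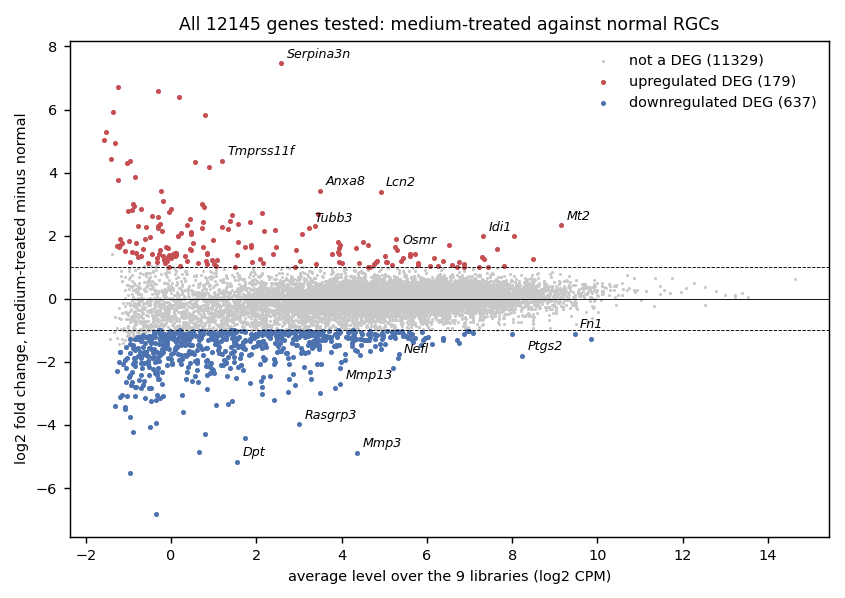
Each point is 1 of the 12145 genes tested, with its average level over the 9 libraries on the x axis (log2 CPM) and its log2 fold change, medium-treated minus normal RGCs, on the y axis. Red points are the 179 upregulated and blue points the 637 downregulated DEGs, and the dashed lines mark a log2 fold change of 1 in either direction. The blue points outnumber the red ones, and Serpina3n, Lcn2 and Mt2 stand above the other genes of their level.

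Among the better expressed genes, the largest increases included secreted defence proteins. Serpina3n, an inhibitor of serine proteases made in the acute-phase response, lies on chromosome 12 from 104406729 to 104414329. It stood at 0.130, 0.0969 and 0.0493 CPM in normal RGCs and at 15.7, 18.7 and 18.6 CPM in medium-treated RGCs. The normal libraries held 6 reads of it in all and the medium-treated ones 1046, so that the log2 fold change reached 7.47 with a standard error of 0.27 (adjusted p = 4.92e-19). Serpina3n met the level set for naming only through the medium-treated libraries. Other increased genes that were low in normal and aging RGCs, such as Tmprss11f, met it in the same way. Lcn2, which encodes lipocalin 2, an iron-sequestering protein of innate defence on chromosome 2, had 7.80, 7.22 and 7.55 CPM in normal RGCs. The aging RGCs lay lower, at 5.03, 4.33 and 3.65 CPM, and the medium-treated RGCs reached 74.6, 81.7 and 80.6 CPM. No medium-treated library came near either of the other groups, and the log2 fold change against normal RGCs was 3.39 (standard error 0.08, adjusted p = 1.77e-23). Mt2, a metal-binding metallothionein, had 195, 268 and 220 CPM in normal and 1139, 1168 and 1140 CPM in medium-treated RGCs. It rose by 2.34 on the log2 scale (standard error 0.06, adjusted p = 2.06e-22), although its exons share bases with a predicted gene on the other strand.

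Genes of the cell membrane and of cell contacts were also among the largest increases. Anxa8, a calcium-dependent membrane-binding annexin, was at 2.04, 2.67 and 2.12 CPM in normal RGCs. It was at 8.11, 7.11 and 6.23 CPM in aging RGCs and stood at 25, 24.8 and 23.5 CPM in medium-treated RGCs (log2 fold change 3.42, standard error 0.13, adjusted p = 1.30e-18). Each of these 3 groups was separate from the others. Msln, which encodes the mesothelial surface protein mesothelin, rose by 2.68 (adjusted p = 5.71e-17), and the transmembrane protease gene Tmprss11f by 4.38 from a very low level (15 reads in the normal and 297 in the medium-treated libraries). Lims2 and Shroom3, whose proteins act at cell-matrix contacts and in the shaping of epithelial cells, rose by 2.71 and 2.65. The cytokine genes Il24 and Il33 rose by 2.43 and 2.22, and Greb1, an estrogen-responsive gene, by 2.46. Fabp4, a fatty acid carrier, rose by 2.36, and Ccn2, a matricellular protein induced by TGF-beta and by stretch, by 2.31. Gsta1, a glutathione transferase, rose by 2.27, but many of its counts were fractional in the deposited table, which shows that reads were assigned in part, and its value is uncertain. Tubb3, a neuronal tubulin that was the only retinal ganglion cell marker among the upregulated DEGs, went from 4.42, 4.51 and 4.44 CPM to 21.2, 22.2 and 20.1 CPM. It rose by 2.25 on the log2 scale with a standard error of 0.12 (adjusted p = 1.32e-15), with the aging RGCs at 3.14, 2.37 and 2.28 CPM, below both other groups.

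The largest decreases included matrix genes and matrix-degrading enzymes. Mmp3, the secreted protease stromelysin-1, lies on chromosome 9 from 7445822 to 7455975 and was at 32.3, 28.6 and 33.3 CPM in normal RGCs. Aging RGCs had 27.5, 30.6 and 28.4 CPM, which overlapped the normal values, and medium-treated RGCs had 1.49, 1.09 and 0.615 CPM. The decrease from normal was 4.87 on the log2 scale (log2 fold change -4.87, standard error 0.14, adjusted p = 4.13e-21). Mmp13, a collagenase, was at 23.6, 25.3 and 24.9 CPM in normal and at 3.60, 3.77 and 3.84 CPM in medium-treated RGCs (log2 fold change -2.71, adjusted p = 1.10e-18). Mmp9, a gelatinase, had a log2 fold change of -2.98 and did not differ between aging and normal RGCs beyond the spread (adjusted p = 0.58). Dpt, which encodes the matrix protein dermatopontin, showed -5.17, and the collagen genes Col14a1 and Col23a1 showed -3.37 and -3.22.

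Signalling genes were among the other large decreases. Rasgrp3, an activator of Ras proteins that responds to diacylglycerol, was at 15.2, 13.4 and 17.3 CPM in normal, 7.36, 5.72 and 7.59 CPM in aging and 0.873, 0.893 and 1.13 CPM in medium-treated RGCs. Prkcb, a protein kinase C that responds to the same lipid and to calcium, was at 23.2, 23.0 and 23.2 CPM in normal and 2.98, 2.63 and 4.10 CPM in medium-treated RGCs. The groups were separate for both genes, with log2 fold changes of -3.98 (adjusted p = 5.45e-17) and -2.84 (adjusted p = 1.03e-17). The receptor genes Gper1 (estrogen), Nr3c2 (mineralocorticoid) and Adora1 (adenosine) had log2 fold changes of -4.40, -3.23 and -3.02. Mfng, which modifies Notch receptors, had -3.32, the endothelial cadherin gene Cdh5 had -2.94, the growth factor gene Ptn had -2.80, and Srcin1, which restrains Src kinase, had -2.73. For all 30 genes named by size of change in these paragraphs the 3 medium-treated and 3 normal values did not overlap, which was a condition of their choice.

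**Figure D2:**
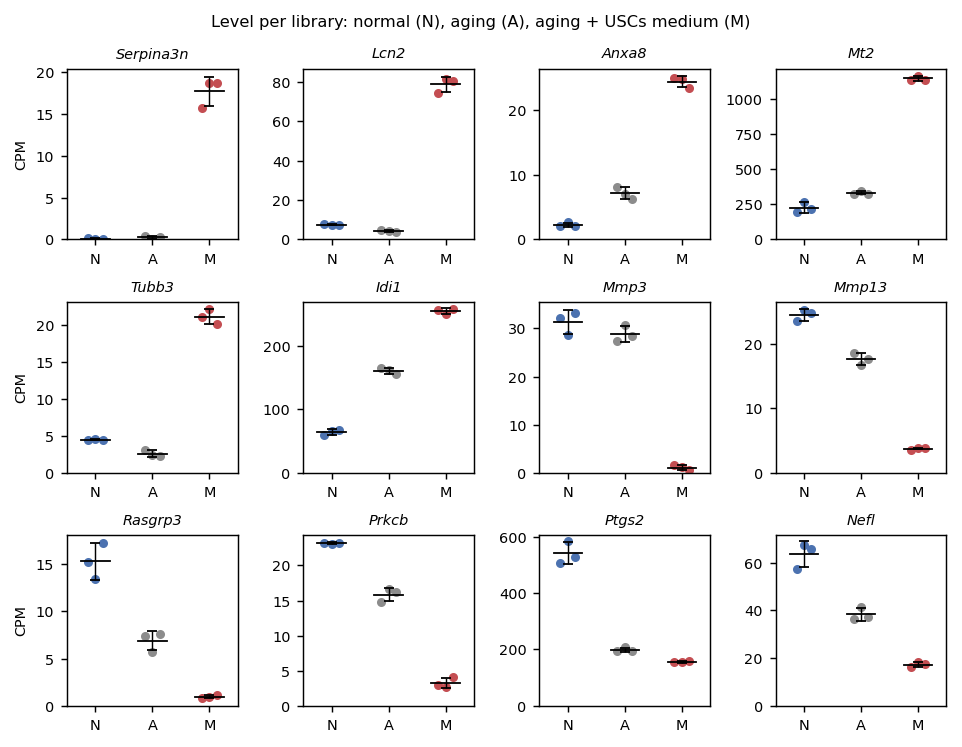
Levels in CPM (y axis) of 12 genes in the 3 normal (N), 3 aging (A) and 3 medium-treated (M) libraries, with each point a library, the long line the group mean and the error bars 1 SD. Serpina3n, Lcn2 and Tubb3 are highest in the medium-treated group with the aging group near or below normal, Mmp3 and Mmp13 are lowest there, and Mt2, Idi1, Anxa8, Rasgrp3 and Prkcb have the aging group in between.

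Promoters are shown for 3 genes with large increases and 2 matrix metalloproteinases with large decreases, because they are among the genes named by size of change. The sequences run 5′ to 3′ on the strand of the gene, from 250 bases before to 50 bases after the RefSeq start, and were taken from RefSeq on GRCm38.p6. They lie at chr12:104406458-104406757 on the plus strand for Serpina3n, chr2:32387690-32387989 on the minus strand for Lcn2, chr8:94172368-94172667 on the plus strand for Mt2, chr9:7445572-7445871 on the plus strand for Mmp3 and chr9:7272264-7272563 on the plus strand for Mmp13. Capitals mark TGACTCA or its reverse complement, the letters bound by AP-1 factors.
Serpina3n: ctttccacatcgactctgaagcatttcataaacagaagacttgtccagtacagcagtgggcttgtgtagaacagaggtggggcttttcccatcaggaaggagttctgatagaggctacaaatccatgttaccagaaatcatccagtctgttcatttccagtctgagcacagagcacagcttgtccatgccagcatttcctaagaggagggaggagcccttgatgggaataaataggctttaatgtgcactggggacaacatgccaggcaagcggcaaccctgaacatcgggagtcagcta
Lcn2: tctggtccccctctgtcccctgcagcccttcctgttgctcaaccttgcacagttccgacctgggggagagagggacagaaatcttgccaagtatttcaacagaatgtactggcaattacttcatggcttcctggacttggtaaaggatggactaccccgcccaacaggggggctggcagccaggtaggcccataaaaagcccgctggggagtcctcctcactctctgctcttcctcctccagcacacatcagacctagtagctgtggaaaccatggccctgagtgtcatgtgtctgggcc
Mt2: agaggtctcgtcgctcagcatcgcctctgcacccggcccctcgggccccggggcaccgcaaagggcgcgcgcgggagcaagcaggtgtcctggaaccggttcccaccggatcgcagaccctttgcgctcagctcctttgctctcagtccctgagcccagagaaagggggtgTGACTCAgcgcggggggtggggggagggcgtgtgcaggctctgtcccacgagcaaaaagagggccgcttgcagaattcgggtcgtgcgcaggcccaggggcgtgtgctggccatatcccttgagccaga
Mmp3: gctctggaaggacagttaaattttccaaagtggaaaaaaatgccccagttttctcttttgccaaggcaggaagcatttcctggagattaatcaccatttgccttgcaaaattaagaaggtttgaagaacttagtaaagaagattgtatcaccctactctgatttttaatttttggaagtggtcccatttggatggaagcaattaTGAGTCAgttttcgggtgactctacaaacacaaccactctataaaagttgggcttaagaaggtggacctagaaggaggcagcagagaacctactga
Mmp13: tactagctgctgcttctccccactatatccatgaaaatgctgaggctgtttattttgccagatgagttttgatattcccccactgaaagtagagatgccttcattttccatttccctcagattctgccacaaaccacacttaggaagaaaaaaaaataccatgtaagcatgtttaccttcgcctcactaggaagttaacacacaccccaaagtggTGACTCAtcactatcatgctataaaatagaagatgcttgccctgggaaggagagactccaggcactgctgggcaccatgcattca
Both metalloproteinase promoters, whose genes fell, and the Mt2 promoter, whose gene rose, hold the AP-1 letters, which start at base 205 in Mmp3, 216 in Mmp13 and 172 in Mt2. Among the 12357 promoters of the 9630 tested genes with a sequence, 3.99% held TGACTCA on either strand, against 10.9% of the 165 promoters of upregulated and 5.84% of the 616 promoters of downregulated DEGs. The STAT letters TTCNNNGAA were in 6.75% of all promoters, 11.5% of those of upregulated and 6.17% of those of downregulated DEGs. The other letters searched were TGATGNAA of ATF4 (2.27%, 3.03% and 3.41%), TCACNCCAC of sterol elements (1.08%, 0.606% and 1.14%) and ACGTG of hypoxia elements (25.2%, 19.4% and 16.6%), in the same order. A match is a description and neither a site nor a cause, and the absence of a match in Serpina3n and Lcn2 says only that none of these letters is in this window.

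In the IL-6 family a receptor subunit and a feedback inhibitor rose, while 2 ligands fell. Osmr, the receptor subunit for oncostatin M, was at 24.9, 30.2 and 25.9 CPM in normal RGCs and at 11.9, 10.6 and 12.5 CPM in aging RGCs. Medium-treated RGCs had 80.1, 77.3 and 80.9 CPM, so that the aging and the medium-treated values lay on opposite sides of normal (log2 fold change 1.56 against normal, standard error 0.06, adjusted p = 9.18e-18). Socs3, the feedback inhibitor, followed the same order with 37.2, 33.4 and 37.0 CPM in normal, 24.7, 27.3 and 27.1 CPM in aging and 95.8, 95.7 and 95.5 CPM in medium-treated RGCs (log2 fold change 1.42, adjusted p = 1.40e-18). The ligand gene Il11 and the receptor gene Lifr were downregulated (log2 fold changes -1.73 and -1.64), and the ligand gene Lif fell by 0.62. Il6 itself was low and did not pass the test, at 0.606, 0.485 and 0.641 CPM in normal and 0.617, 0.347 and 0.615 CPM in medium-treated RGCs. Il6st, the shared signalling subunit, had a log2 fold change of 0.21, Jak2 of 0.24 and Jak1 of -0.15. In the whole list 9 of 24 genes were higher and 7 lower at an adjusted p under 0.05, with 2 DEGs in each direction, and without TMM factors 7 were higher and 8 lower.

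Of the acute-phase genes tested, which the liver and many epithelia make under inflammatory cytokines, most were higher. Of 25 listed, 8 had a count of 0 in all 9 libraries and 11 were tested. Of these 11, 8 were higher and 2 lower, 5 were upregulated DEGs and none was a downregulated DEG. The median log2 fold change was 0.97 against -0.01 for all genes. Besides Serpina3n and Lcn2 these DEGs were Cebpd, a transcription factor of the response, with 8.10, 8.14 and 6.81 CPM in normal and 25.6, 29.7 and 25.9 CPM in medium-treated RGCs (log2 fold change 1.81, adjusted p = 2.16e-15), and 2 low genes. Serpina3i, a relative of Serpina3n, had 7, 8 and 3 counts in normal and 50, 33 and 38 counts in medium-treated libraries. Orm1, the plasma protein orosomucoid, had 1 count over the normal libraries, 0 in the aging ones and 17, 11 and 14 in the medium-treated ones, so no fold is given. Serpina3n, Serpina3i and Orm1 passed the low-count filter only through the medium-treated libraries, so they could be called only as higher. Without medium-treated replicate 1 there were 7 upregulated and 1 downregulated DEGs of 13 tested. Without replicate 2 there were 5 and 0 of 12, and without replicate 3 there were 5 and 1 of 12. Timp1, an inhibitor of metalloproteinases, rose by 0.74 from 66.9, 75.1 and 69.1 CPM to 112, 123 and 118 CPM.

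Secreted proteases and chemokines were mostly lower. Of 17 matrix metalloproteinases and their inhibitors tested, 10 were lower and 3 higher, 5 were downregulated DEGs and none upregulated, and the median was -0.76. This median also depended on single libraries. It was -0.53 without medium-treated replicate 1, -0.51 without replicate 2 and -0.90 without replicate 3, with 18 genes tested each time. Mmp10 and Mmp2 completed the set of DEGs, with log2 fold changes of -1.77 and -1.15, and Mmp10 had been higher in aging RGCs (31.9, 37.4 and 34.6 CPM) than in normal RGCs (22.8, 24.2 and 23.3 CPM), and stood at 6.37, 6.40 and 7.89 CPM in medium-treated RGCs. The membrane protease Mmp14 had values of 155, 151 and 150 CPM in normal and 143, 154 and 149 CPM in medium-treated RGCs, which overlapped. Of 17 chemokines and their receptors, 9 were lower and 1 was higher, 8 were downregulated DEGs, and the median was -0.82. That median depended on single libraries, as it was -0.61 without medium-treated replicate 1, -0.46 without replicate 2 and -1.025 without replicate 3. Cx3cl1, a membrane-bound chemokine, was at 99.6, 91.7 and 103 CPM in normal and 40.9, 38.7 and 39.8 CPM in medium-treated RGCs (log2 fold change -1.30, adjusted p = 2.57e-18). Ccl20, which attracts lymphocytes, had -2.45, and Pf4, a platelet chemokine, -3.15 at low counts. The neutrophil chemokine Cxcl1 rose by 0.56, and the monocyte chemokine Ccl2 fell by 0.24.

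Other inflammatory groups moved less evenly. Ptgs2, which encodes the prostaglandin-forming enzyme cyclooxygenase-2, was at 509, 585 and 530 CPM in normal, 195, 208 and 195 CPM in aging and 154, 154 and 158 CPM in medium-treated RGCs. That was a decrease of 1.80 (log2 fold change -1.80, standard error 0.04, adjusted p = 2.10e-23), and the aging RGCs lay much nearer to the medium-treated than to the normal RGCs. Csf3, a growth factor for granulocytes, went the other way with a log2 fold change of 1.71, and Csf2 had -1.31. These were the only DEGs among 23 NF-kB factors and targets, of which 7 were higher and 7 lower with a median of -0.01. Interferon-response genes were lower in 14 and higher in 3 of 31 tested, with 7 downregulated DEGs that included Usp18 (log2 fold change -1.36), Ifi44 (-1.18) and Irf7 (-1.01). Of 23 interleukins and receptors, 6 were higher and 7 lower, and the DEGs besides Il24, Il33 and Il11 were Tslp (-2.55), Il15 (-1.83) and Il1a (-1.09), all lower. Over all genes tested 30.6% were higher and 29.9% lower, and the NF-kB and interleukin counts were near these shares. In the TNF superfamily 4 of 17 were higher and 7 lower, with Tnfsf11, the osteoclast factor RANKL, among the 2 downregulated DEGs (-2.15).

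Genes of cholesterol synthesis were higher without exception. All 25 of the enzymes and regulators tested were higher at an adjusted p under 0.05, 15 were upregulated DEGs, and the median log2 fold change was 1.03. Aging RGCs had a median of 0.71 for the same list. Idi1, which forms the isoprenoid building block, was at 59.5, 66.5 and 67.9 CPM in normal, 165, 163 and 156 CPM in aging and 257, 251 and 260 CPM in medium-treated RGCs. The 3 groups did not overlap, and the difference from normal was 1.99 (standard error 0.04, adjusted p = 7.84e-24). Cyp51 (1.72), Hmgcs1 (1.56), Lss (1.43), Mvd (1.41) and Fdps (1.32), enzymes along the same route, followed it. Without TMM factors the whole list was still higher in all 25 genes. Lipid genes outside this route were less uniform, since 11 of 19 fatty acid synthesis genes were higher and 4 lower, with Fads2, a fatty acid desaturase, the only DEG (1.17).

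Abca1 and Abcg1, which export cholesterol, were lower. Abca1, the transporter that loads cholesterol onto lipoproteins, was at 21.2, 16.6 and 20.6 CPM in normal, 8.38, 6.23 and 7.54 CPM in aging and 4.11, 4.12 and 5.58 CPM in medium-treated RGCs (log2 fold change -2.08, adjusted p = 1.41e-13). Abcg1, its partner, was at 40.0, 30.2 and 37.4 CPM in normal and at 12.6, 10.6 and 11 CPM in medium-treated RGCs (log2 fold change -1.66, adjusted p = 1.45e-14), with the aging RGCs at 12.4, 12.1 and 13.8 CPM. Of 16 efflux genes and targets of the sterol receptor LXR, 8 were lower and 3 higher with 3 downregulated DEGs, and without medium-treated replicate 3 there were 10 lower and 2 higher with 7. The third of these DEGs was Apoe, a lipoprotein that macrophages also make, at 1.59 and 1.44 CPM in medium-treated replicates 1 and 2 but 6.04 CPM in replicate 3, and its adjusted p was 0.00237 by edgeR and 0.0967 by DESeq2. Without medium-treated replicate 1 or 2 the efflux list had 7 and 8 lower genes, with 2 higher and 2 downregulated DEGs in each case. Of 18 target genes of the PPAR receptors, 10 were lower and 4 higher with a median of -0.28, and Acaa2, a mitochondrial enzyme of fatty acid oxidation, was the downregulated DEG (-1.14).

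Genes of the amino acid response that ATF4 controls were below normal, most of them by less than 2-fold. ATF4 is a transcription factor that cells use when amino acids run short, and its targets make and import them. Of 20 genes tested, 17 were lower and none higher, 3 were DEGs, and the median was -0.43, against a median of -1.07 in aging RGCs. Fgf21, a stress hormone, was at 8.53, 8.68 and 7.50 CPM in normal, 0.649, 0.721 and 0.506 CPM in aging and 0.822, 1.59 and 1.49 CPM in medium-treated RGCs, and remained the furthest below normal (log2 fold change -2.66, adjusted p = 7.56e-12). Chac1, which breaks down glutathione, had 48.9, 50.3 and 46.9 CPM in normal, 8.54, 12.6 and 8.81 CPM in aging and 22.6, 24.9 and 19.8 CPM in medium-treated RGCs, between the other groups. Asns, which makes asparagine, had overlapping values of 296, 326 and 304 CPM in normal and 302, 300 and 296 CPM in medium-treated RGCs (adjusted p = 0.278), with aging RGCs at 114, 119 and 114 CPM. Without TMM factors and with upper-quartile factors Asns passed the test as lower (log2 fold changes -0.15 and -0.08).

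Amino acid synthesis genes were split, and amino acid transporters were mostly lower. Of 27 genes of serine, one-carbon and amino acid synthesis, 12 were higher and 9 lower with a median of -0.05, and without TMM factors 10 were higher and 15 lower. Pcx and Cbs, which feed the citrate cycle and make cystathionine, were its DEGs (log2 fold changes -1.42 and -1.10). Phgdh, the first enzyme of serine synthesis, rose slightly above normal (0.18), and Psat1, the next enzyme, fell slightly below it (-0.12). Amino acid transporters were lower in 12 and higher in none of 17, with the glycine transporter gene Slc6a9 the DEG (-1.11). The importer gene Slc7a5 was at 408, 398 and 386 CPM in normal, 170, 187 and 180 CPM in aging and 311, 318 and 296 CPM in medium-treated RGCs. Of 22 aminoacyl-tRNA synthetases, which load amino acids for translation, 13 were higher and 4 lower with a median of 0.12 and no DEG, against a median of -0.49 in aging RGCs. The excess of higher synthetases depended on the scaling. Without TMM factors 10 were higher and 7 lower (median 0.02), and with upper-quartile factors 11 and 7 (median 0.08).

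Genes of cell division were higher than normal by small and even amounts. Of 38 genes of DNA replication and S phase, 36 were higher and none lower, with a median of 0.50, and all 30 mitosis genes were higher, with a median of 0.43. Rrm2, which makes the building blocks of DNA, was at 220, 226 and 218 CPM in normal, 337, 339 and 334 CPM in aging and 532, 537 and 515 CPM in medium-treated RGCs (log2 fold change 1.25, adjusted p = 1.45e-22). Rrm2 and the cyclin gene Ccne2 (1.01) were the only DEGs, and the proliferation marker Mki67 was at 731, 668 and 737 CPM in normal and 973, 906 and 963 CPM in medium-treated RGCs. The aging medians were 0.40 and 0.36 for these lists. Cdkn1a, the inhibitor p21 that rises in senescence, was slightly lower, at 266, 293 and 285 CPM in normal and 246, 250 and 250 CPM in medium-treated RGCs, and Glb1, the lysosomal galactosidase used to stain senescent cells, fell by 0.43. Lmnb1, a nuclear lamin that is lost in senescent cells, rose by 0.43. Of 24 senescence and p53 target genes 12 were higher and 7 lower with no DEG and a median of 0.15.

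Apoptosis genes showed no common direction. Of 23 pro-apoptotic genes 6 were higher and 4 lower with a median of 0.07, and without TMM factors 5 were higher and 7 lower with a median of -0.03. Casp12, a caspase tied to stress of the endoplasmic reticulum, was the DEG, at 12.9, 10.9 and 15.5 CPM in normal and 39.2, 41.4 and 46.1 CPM in medium-treated RGCs (log2 fold change 1.69, adjusted p = 5.22e-15). Bax, which opens the mitochondrial membrane, had overlapping values of 43.3, 39.0 and 40.6 CPM in normal and 41.1, 42.9 and 42.8 CPM in medium-treated RGCs, with aging RGCs at 58.5, 54.5 and 56.6 CPM. Of 11 anti-apoptotic genes 4 were higher and 4 lower with no DEG, and Bcl2 fell by 0.90. Their median of 0.03 became -0.07 without TMM factors and -0.01 with upper-quartile factors.

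Protein folding and cytoskeleton genes were higher in number but not in large steps. Of 30 chaperones and genes of the unfolded protein response, 20 were higher and 7 lower with a median of 0.30 and no DEG. Hspa8, a constitutive chaperone, was at 2697, 2512 and 2777 CPM in normal and 4287, 4246 and 4169 CPM in medium-treated RGCs, and Hspa5, a chaperone of the endoplasmic reticulum, was lower than normal in aging RGCs and higher by 0.40 in medium-treated RGCs. Of 14 tubulins, the building blocks of microtubules, 10 were higher and none lower with a median of 0.48, and Tubb6 (0.75) and Tuba1a (0.59) followed Tubb3. Nefl, the light neurofilament and a marker of ganglion cells, went the other way, at 57.5, 67.5 and 65.9 CPM in normal, 36.6, 41.5 and 37.2 CPM in aging and 16.1, 18.2 and 17.5 CPM in medium-treated RGCs. It was the downregulated DEG among the ganglion cell markers (log2 fold change -1.88, adjusted p = 2.07e-18), and its exons share bases with Nefm on the other strand, which had at most 24 counts in a library.

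Target genes of the glucocorticoid receptor were higher in 13 and lower in 3 of 18, with 6 upregulated DEGs and a median of 0.68, against -0.10 in aging RGCs. Lcn2, Cebpd and the metallothioneins are in this list as well as in others, so these counts are not independent. Mt1 was at 97.8, 112 and 112 CPM in normal, 248, 266 and 260 CPM in aging and 416, 419 and 430 CPM in medium-treated RGCs (log2 fold change 1.98, adjusted p = 7.49e-24). Tsc22d3, which encodes the leucine zipper protein GILZ, lay on both sides of normal, at 25.7, 25.2 and 24.8 CPM in normal, 12.8, 11.7 and 11.8 CPM in aging and 41.9, 46.1 and 43.0 CPM in medium-treated RGCs. Fkbp5, a co-chaperone of the receptor, and the clock gene Per1 rose by 0.63 and 0.73, and Nr3c1, the receptor gene itself, fell by 0.31. Of 12 metallothioneins and zinc transporters 8 were higher and 1 lower, and the zinc importer Slc39a4 was the downregulated DEG (-1.70). Of 19 circadian clock genes 5 were higher and 9 lower with 4 downregulated DEGs, among them Nr1d2 (-1.28) and Rora (-1.73), which are clock repressor and activator.

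The lists of osmotic and hypoxic stress held more lower than higher genes, and the antioxidant list was split. Of 12 genes of the osmotic stress response 9 were lower and 1 higher, with a median of -0.53. Slc5a3, which imports the osmolyte inositol, was at 165, 120 and 146 CPM in normal, 159, 151 and 157 CPM in aging and 74.6, 66.5 and 81.2 CPM in medium-treated RGCs, and shares exon bases with other genes on its strand. Nfat5, the factor that drives the response, fell by 0.69, and the water channel Aqp1, the DEG of the list, fell by 1.21. Of 33 glycolysis and hypoxia genes 20 were lower and 10 higher with a median of -0.17, and Car9, a carbonic anhydrase of hypoxic cells, went from 9.18, 8.53 and 9.47 CPM to 2.52, 2.93 and 2.77 CPM (log2 fold change -1.72). Eno2 (-1.47) and Vegfa (-0.73) were lower as well, and Ldha was higher (0.25). Antioxidant genes were split, with 10 of 31 higher and 13 lower, beside 30.6% higher and 29.9% lower over all genes tested. The NRF2 targets Nqo1, Hmox1, Gstm1 and Osgin1 were among the lower members of the antioxidant list (log2 fold changes -0.71, -0.71, -1.41 and -1.23). The upregulated DEGs of this list were Gpx3, a secreted glutathione peroxidase at a low level (3.11), and Gsta1 (2.27), whose value is uncertain as stated above. Of 13 genes that break down galactose 3 were higher and 5 lower with no DEG, and the median of -0.10 became 0.05 without medium-treated replicate 3.

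The extracellular matrix and the genes that sense it were lower. Of 27 collagens and related matrix genes 15 were lower and 6 higher, with 7 downregulated and 3 upregulated DEGs and a median of -0.44, while the median in aging RGCs was 0.01. Fn1, which encodes fibronectin, was at 1041, 953 and 1012 CPM in normal, 614, 685 and 661 CPM in aging and 479, 444 and 471 CPM in medium-treated RGCs (log2 fold change -1.11, adjusted p = 2.93e-19). Col4a5, of basement membranes, had -1.31 and Col1a1 had -1.06, whereas Col7a1, of anchoring fibrils, rose by 1.06. Of 18 integrins and laminins 13 were lower and 3 higher. Plau and Plat, the activators of plasminogen, were at 61.3, 59.7 and 60.1 CPM and at 152, 167 and 162 CPM in normal RGCs and were DEGs (-1.23 and -1.03), and the inhibitor gene Serpinb2 was an upregulated DEG (1.36). Of 18 complement and coagulation genes 9 were lower and 3 higher.

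The lists of axon guidance and of channels and calcium signalling were mostly lower, and the neurotrophic list held more lower than higher genes. Of 35 axon guidance ligands and receptors 25 were lower and 3 higher, with 6 downregulated DEGs and no upregulated DEG. Sema3f, a repellent semaphorin, was at 27.0, 22.6 and 24.7 CPM in normal, 24.3, 21.3 and 23.1 CPM in aging and 9.14, 8.73 and 8.65 CPM in medium-treated RGCs (log2 fold change -1.49, adjusted p = 3.30e-14), and Ephb2 and Sema6d had -1.20 and -1.15. Of 17 neurotrophic factors and their receptors 8 were lower and 1 higher, with 5 downregulated DEGs and a median of -0.67. Serpinf1, the neurotrophic factor PEDF, was at 32.8, 32.8 and 33.5 CPM in normal, 7.03, 7.93 and 8.96 CPM in aging and 7.81, 9.73 and 8.25 CPM in medium-treated RGCs, which overlapped the aging values. Gfra2, a receptor for neurturin, had -2.15, the sorting receptor Sort1 had -1.37, and Bdnf, which supports ganglion cells, had -1.0 (23.0, 18.6 and 21.2 CPM in normal and 9.2, 11.3 and 10.9 CPM in medium-treated RGCs). Of 20 voltage-gated channels and calcium signalling genes 15 were lower and 1 higher, with 8 downregulated DEGs that included the calcium channel genes Cacna1g (-2.0) and Cacna1h (-1.20). These DEGs also held Camk2a, Prkcb and Rasgrp3, which are not channels, and the last 2 are named above by size of change. Rasgrp3 is counted in the ERK list as well, so these counts are not independent.

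In growth signalling the ERK, immediate-early and Wnt lists leaned lower, while the TGF-beta and BMP list was more evenly split. Of 24 genes that ERK signalling induces or that feed back on it 17 were lower and 1 higher, with a median of -0.43, and the growth factor genes Btc (-1.47) and Areg (-1.20) and the inhibitor Spry1 (-1.12) were DEGs with Rasgrp3. Of 22 immediate-early genes of the AP-1 and EGR families 12 were lower and 4 higher, with Egr2 (-1.28) and Egr3 (-1.07) the DEGs. Of 17 Wnt ligands, receptors and antagonists 11 were lower and 2 higher, with Wnt3 (-2.71), Lef1 (-1.75) and Notum (-1.75) lower and Wnt4 (2.39) higher. Of 29 genes of the TGF-beta and BMP response 8 were higher and 11 lower with a median of -0.09, and Bmp2 (-1.21) was a downregulated DEG beside the upregulated Ccn2. Without TMM factors 4 of the 29 were higher and 14 lower.

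**Figure D3:**
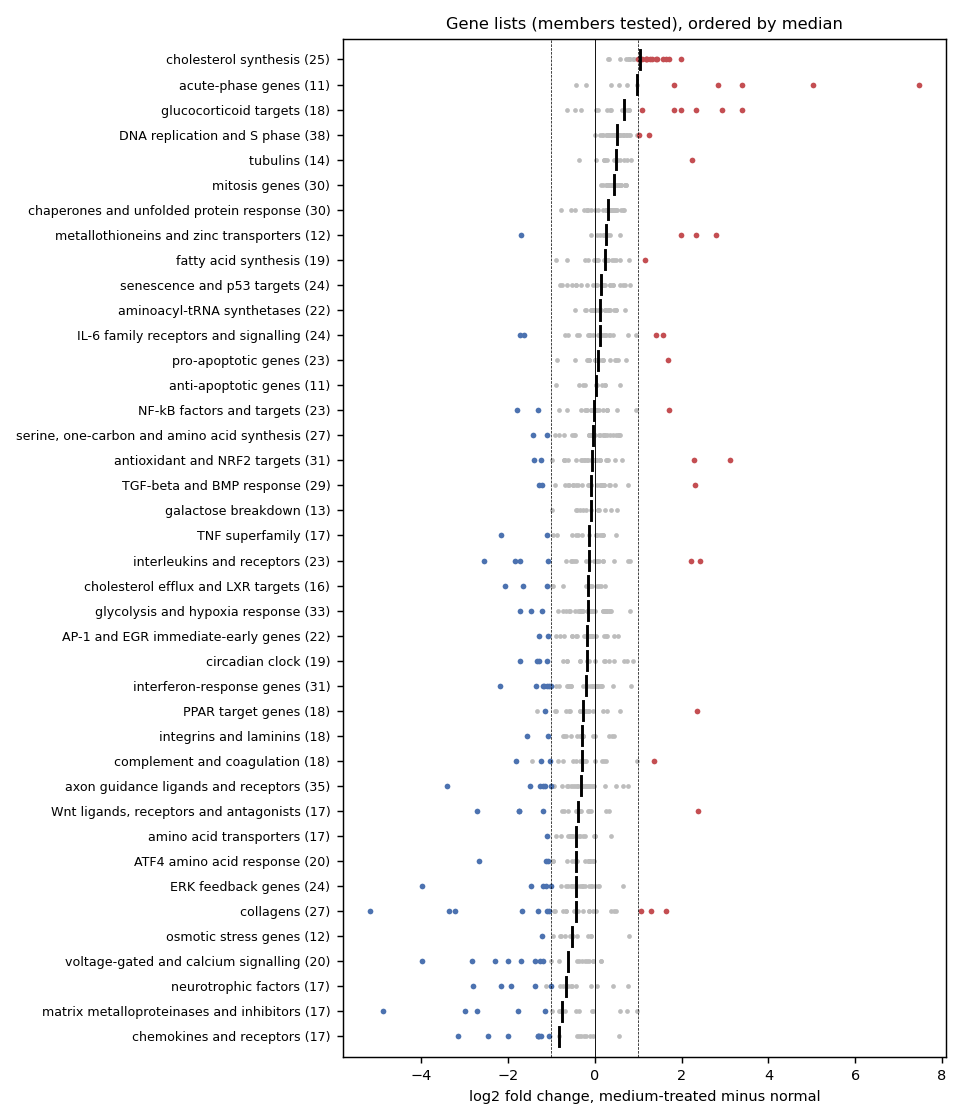
Each row is 1 of the 40 gene lists, with the number of members tested in brackets, and each point is a member's log2 fold change, medium-treated minus normal RGCs (x axis). Red and blue points are up- and downregulated DEGs, and grey points are the other members. Black bars are list medians, and dashed lines mark 1 in either direction. Cholesterol synthesis and acute-phase genes have the highest medians, and chemokines and matrix metalloproteinases the lowest. Without medium-treated replicate 2 the neurotrophic list (-0.68) and the channel and calcium signalling list (-0.72) were lower than both.

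The pathways of the deposited KEGG annotation gave a wider view. Of 280 pathways with at least 20 genes tested, the median share of DEGs was 7.03%, and no enrichment was tested. Over all genes tested 637 of the 816 DEGs were downregulated, so a majority of downregulated DEGs is not particular to a pathway. ABC transporters had the highest share, with 11 DEGs among 35 genes, 2 upregulated and 9 downregulated. The lipid transporter gene Abca8a was nearly silent in the medium-treated libraries (30, 30 and 19 counts in normal and 1, 1 and 2 in medium-treated), and Abcb11, the bile salt pump, was higher with 0.563, 0.533 and 0.493 CPM in normal and 3.03, 2.83 and 2.77 CPM in medium-treated RGCs. Cell adhesion molecules had 19 of 62, 5 upregulated and 14 downregulated, among them Cdh5, the immune checkpoint ligand Vtcn1 (2.30) and the costimulator Cd28 (-2.23). In terpenoid backbone biosynthesis, the upstream part of the cholesterol route, all 6 DEGs of 21 genes were upregulated. In ECM-receptor interaction all 12 DEGs of 53 were downregulated, with Dmp1 (-2.49), Thbs2 (-1.6) and Tnr (-1.6), matrix proteins of bone, connective tissue and brain. Cytokine-cytokine receptor interaction had 28 of 121, 5 upregulated and 23 downregulated, and calcium signaling had 22 of 100, 2 upregulated and 20 downregulated, with the ATP receptor gene P2rx7 (-2.51) among the lower ones.

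The signalling pathways of growth and survival were nearer to the median share. Rap1 signaling had 23 DEGs of 163, Ras signaling 22 of 167, PI3K-Akt signaling 29 of 245 and MAPK signaling 25 of 240. In each most DEGs were downregulated (20, 20, 24 and 23), as were 637 of the 816 DEGs over all genes. TNF signaling had 13 of 106, Jak-STAT signaling 13 of 98, with 5 upregulated and 8 downregulated, and axon guidance 21 of 141. NF-kappa B, HIF-1, p53 and apoptosis lay below the median share, with 5 of 76, 5 of 93, 3 of 66 and 5 of 118. Pathways of growth machinery had almost no DEGs but many small increases. DNA replication had 32 of 36 genes higher and none lower, ribosome biogenesis 56 of 71 higher and 2 lower, and the ribosome 86 of 133 higher and 9 lower.

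The DEGs between medium-treated and normal RGCs were sorted by where the aging RGCs lay. The 3 comparisons share libraries, so these counts are a description of the calls and not tests. Aging against normal RGCs gave 132 upregulated (1.09%) and 190 downregulated DEGs (1.56%), and medium-treated against aging RGCs gave 150 (1.24%) and 511 (4.21%). Of the 816 DEGs, 147 remained different, that is, they were DEGs in the same direction in aging RGCs, 49 upregulated and 98 downregulated. Another 365 became different, being DEGs against both normal and aging RGCs in the same direction but not in aging RGCs, 71 upregulated and 294 downregulated. For 296 genes the difference reached 2-fold only against normal RGCs, and 8 were displaced to opposite sides of normal in aging and medium-treated RGCs. Conversely, 167 DEGs of aging RGCs were no longer called.

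Among the genes that remained different, more lay further from normal in medium-treated than in aging RGCs than lay nearer. For 100 of the 147 the medium-treated and aging RGCs did not differ at an adjusted p under 0.05, 34 lay further from normal in medium-treated RGCs and 13 lay nearer to it. Dpt, Gper1, Tmprss11f, Rasgrp3, Anxa8, Col14a1 and Msln lay further, and Fgf21 lay nearer. Gper1, for example, was at 8.75, 4.70 and 7.25 CPM in normal, 2.33, 1.96 and 2.23 CPM in aging and 0.308, 0.149 and 0.512 CPM in medium-treated RGCs.

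Genes that became different included Serpina3n, Mmp3, Lcn2, Mfng, Nr3c2, Col23a1, Adora1 and Mmp9. Of the 365, aging RGCs did not pass the adjusted p against normal for 288, differed in the same direction for 51 and in the opposite direction for 26. Lcn2 and Tubb3 were of the last kind, since both were lower than normal in aging RGCs (log2 fold changes -0.80 and -0.78) and higher than normal in medium-treated RGCs. Of the 8 genes displaced to opposite sides, Osmr was the only one that ended above normal. Camk2a, a calcium-dependent kinase of neurons, was at 3.64, 3.15 and 3.45 CPM in normal, 6.38, 7.57 and 7.90 CPM in aging and 1.80, 1.09 and 1.08 CPM in medium-treated RGCs, and Tnc, which encodes the matrix protein tenascin C, was at 25.1, 25 and 28.0, then 53.4, 55.9 and 60.3, then 11.5, 9.78 and 11.3 CPM.

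Among the 167 genes no longer called, 105 did not pass the adjusted p against normal RGCs, 58 of which had been upregulated and 47 downregulated in aging RGCs. Another 55 still differed from normal in the direction of aging by less than 2-fold, and 7 differed in the opposite direction. For 111 of the 167 the difference between medium-treated and aging RGCs, at an adjusted p under 0.05, pointed towards normal. Of the 8 genes named for this class by size of change, Cth, which makes cysteine, was at 24.9, 31.4 and 25.5 CPM in normal, 8.11, 7.16 and 6.94 CPM in aging and 26.6, 27.2 and 22.6 CPM in medium-treated RGCs, so that the first and last groups overlapped (adjusted p = 0.337), although without TMM factors it passed the test as lower (log2 fold change -0.20, adjusted p = 0.0492). Slc7a11, Trib3, Aldh1l2 and Gpt2, a cystine importer, a regulator of ATF4, a folate enzyme and a transaminase, were still lower than normal by less than 2-fold (log2 fold changes -0.61, -0.65, -0.48 and -0.91). The sterol-esterifying enzyme Soat2 had overlapping values in normal and medium-treated RGCs (adjusted p = 0.481). 2610528A11Rik, which encodes a secreted ligand of the receptor GPR15, was at 0.996, 1.6 and 0.641 CPM in normal, 4.38, 4.58 and 3.70 CPM in aging and 0.719, 0.794 and 0.512 CPM in medium-treated RGCs, and without normal replicate 3 it passed the test as lower than normal (log2 fold change -0.92). Lpl, which releases fatty acids from lipoproteins, is placed in this class by 1 library, as it was at 1.95 and 1.74 CPM in medium-treated replicates 1 and 2, 11.4 CPM in replicate 3 and 8.58, 9.16 and 7.01 CPM in normal RGCs. Without replicate 3 its log2 fold change was -2.16 (adjusted p = 5.26e-07).

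**Figure D4:**
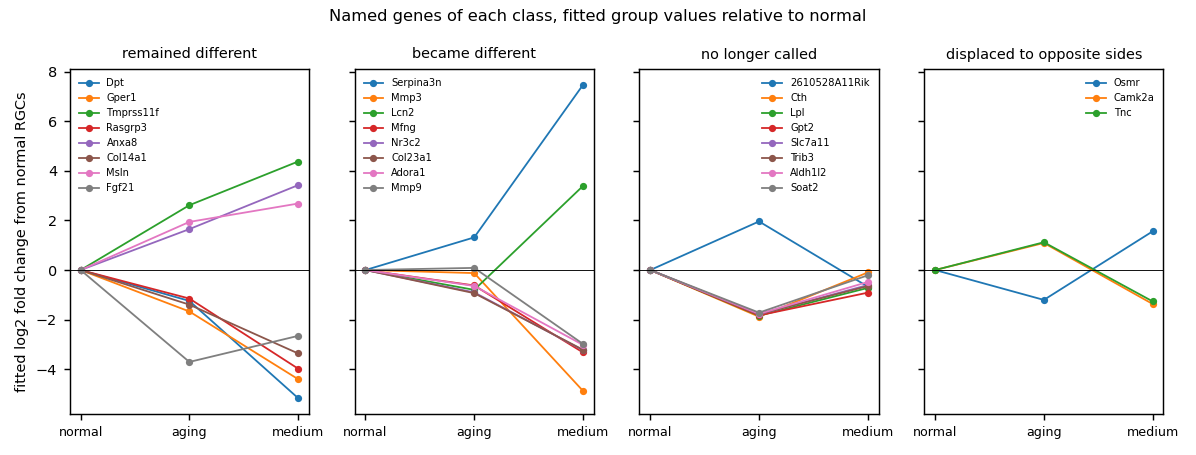
Fitted log2 fold change from normal RGCs (y axis, normal set to 0) of the genes named for each class, at normal, aging and medium-treated RGCs (x axis), with 1 line per gene. Genes that remained different leave 0 in aging RGCs and stay away, and those that became different leave it mainly in the medium. Those no longer called lie nearer to 0 in medium-treated than in aging RGCs. The last panel holds those 3 of the 8 genes displaced to opposite sides whose log2 CPM averaged 1 or more.

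Several macrophage genes, but not all of the 17 listed, separated medium-treated replicate 3 from the other libraries of its group. Lyz2, the lysozyme of macrophages, had 522, 210 and 265 counts in normal, 118, 23 and 38 in aging and 45, 20 and 241 in medium-treated libraries. C1qb, a complement subunit of tissue macrophages, had 21, 13 and 11 counts in normal, 0 in all aging libraries and 0, 0 and 15 in the medium-treated ones, and Adgre1, the F4/80 antigen, had 57, 19 and 43, then 2, 0 and 1, then 2, 2 and 32. Replicate 3 of the medium-treated group was thus near the normal libraries for these genes and the other 2 were near the aging libraries. Other members did not follow this order. Mrc1 had 111, 78 and 123 counts in normal, 108, 139 and 148 in aging and 56, 47 and 60 in medium-treated libraries. Cd14 had 311, 256 and 244, then 232, 240 and 262, then 272, 291 and 333. None of the 17 macrophage markers was at 0 in all 9 libraries, and their summed level was 55.9 to 67.1 FPKM in normal, 45.7 to 49.7 FPKM in aging and 35.0, 32.8 and 53.2 FPKM in medium-treated libraries. Cd68, which other cells also make, gave 30.3, 35.8 and 30.8 FPKM of it in normal and 23.7, 22.3 and 27.2 FPKM in medium-treated libraries. In bulk RNA, fewer cells of a type and less RNA per cell cannot be told apart. Of 12 markers tested 7 were lower and 1 was higher with 4 downregulated DEGs and a median of -1.06, and without medium-treated replicate 3 11 were lower and none higher with 9 DEGs and a median of -2.36. Without replicate 1 or 2 of that group 4 were lower, with 2 DEGs. Csf1r, a receptor of macrophages, had a log2 fold change of -2.37, and Lyz2 had -1.57 with an adjusted p of 0.00234 by edgeR and 0.18 by DESeq2. Adgre1 passed the test over all libraries but not without normal replicate 1 (adjusted p = 0.0766) or medium-treated replicate 1 or 2 (adjusted p = 0.10 and 0.104). The part of these cells in the differences of Lpl, Apoe, the cholesterol efflux list and the chemokines was not tested. For chemokines the counts without replicate 3 were 10 lower and 1 higher with 9 downregulated DEGs, and over all genes there were 173 upregulated and 702 downregulated DEGs without it. Without medium-treated replicate 1 these chemokine counts were 8, 1 and 7, and without replicate 2 they were 7, 1 and 6. Over all genes those 2 fits gave 175 upregulated DEGs each, with 614 and 621 downregulated.

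**Figure D5:**
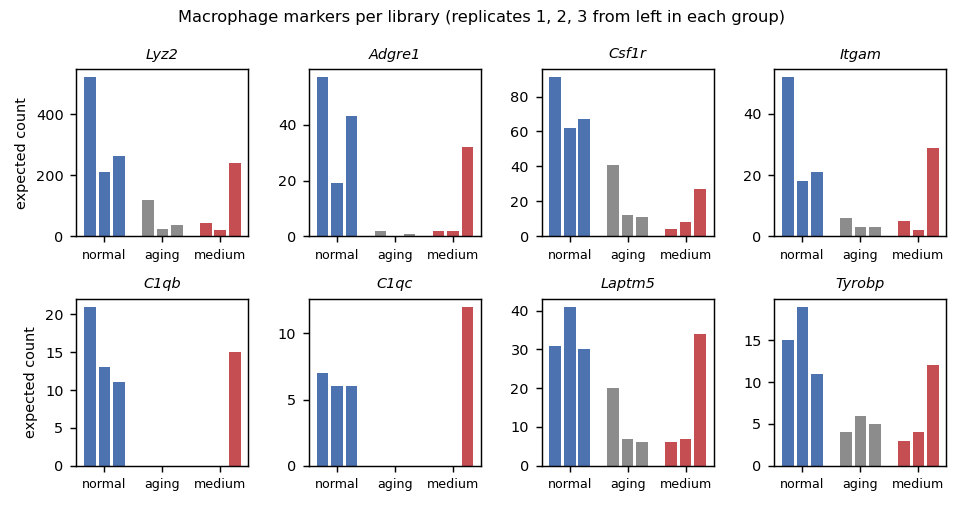
Expected counts (y axis, starting at 0) of 8 of the 17 macrophage markers in each library, with bars for replicates 1, 2 and 3 from left to right in the normal (blue), aging (grey) and medium-treated (red) groups. In the medium-treated group the third bar is the highest for all 8 genes, and C1qb and C1qc have bars in the normal libraries and in medium-treated replicate 3 only.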

How the data were processed

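The authors extracted RNA from 9 mouse cultures, 3 per group, and deposited expected counts (estimated read numbers per gene, not normalized) and FPKM (scaled by transcript length and library size) with gene annotation. The submitters' processing notes name mm10. For the aligner, counter and strand setting the sources used here give nothing. The deposited columns of the authors' own comparisons were not used.

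Expected counts were rounded to whole numbers, filtered with filterByExpr and tested in edgeR 4.0.16 (R 4.3.3) by the quasi-likelihood test with TMM factors, all 9 libraries in 1 fit, and Benjamini-Hochberg adjustment over 12145 genes. The steps were tested on simulated data. DEGs needed an adjusted p under 0.05 and at least a 2-fold difference. Alternatives used DESeq2 1.42.0, limma 3.58.1 on log2(FPKM + 1) or log2(FPKM + 0.1), other factors, filters, thresholds and samples. Python 3.11.15 with pandas 2.3.3 and matplotlib 3.10.9 served for summaries and plots. Of the identifiers, 22267 of 22322 matched GENCODE M21, and promoters came from RefSeq on GRCm38.p6. Of 175 named genes, 39 share exon bases with a gene on the other strand and 9 with one on the same strand, so their counts may hold reads of those genes.

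Genes were named by rule: the 15 up- and 15 downregulated DEGs with the largest change whose groups did not overlap and whose log2 CPM averaged 1 or more, DEGs and needed members of the 40 gene lists and 7 marker lists, up to 8 genes per class of change, and up to 4 per KEGG pathway. The members and lists were chosen with earlier results of these data known. Replicate numbers did not pair the libraries.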

Additional observations from a re-analysis of the deposited data

How the results depend on the processing

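The counts of DEGs stayed within 1.5 times of the reported ones under DESeq2, the likelihood ratio test, other scaling factors, other low-count filters, a fit of only the groups compared and the replicate block. They moved with the fold threshold and with the FPKM scale. Without a fold threshold there were 3716 upregulated and 3634 downregulated genes, 3558 remained different, 2506 became different and 1515 were no longer called, and at 1.5-fold these counts were 555, 1334, 477, 756 and 451. By limma on log2(FPKM + 1), which shrinks the changes of low genes by its construction, they were 62, 167, 26, 72 and 40, and with log2(FPKM + 0.1) 119 genes were upregulated. Leaving out each library in turn gave 173 to 189 upregulated, 614 to 702 downregulated, 130 to 165 remained, 345 to 383 became and 166 to 193 no longer called. DESeq2 called 765 DEGs, of which 763 were shared. With the replicate number as a block there were 180 upregulated and 629 downregulated genes, 147 remained, 358 became and 163 no longer called. Deviations of libraries with the same number correlated at -0.0472 to 0.0427, so the numbers did not pair them. Over the named genes and alternatives, 3289 fold changes kept direction and call, 11 lost the call, 15 gained it and none reversed. Precision for low genes such as Serpina3i, Orm1 and Abca8a is limited by their few reads.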

Other observations

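Markers of other cell types that the cultures could hold gave these values. Of 17 mesenchymal markers, 13 were tested, 8 were lower and 2 higher in medium-treated than in normal RGCs, and Pdgfrb, a growth factor receptor of mural and mesenchymal cells, was a downregulated DEG (log2 fold change -2.09) with Fn1 and Col1a1. Of 17 epithelial markers, 7 were tested, 4 were lower and 1 was higher, and the tight junction gene Ocln was a downregulated DEG. Of 10 endothelial markers, 5 were tested and 2 were lower, both of them DEGs, Cdh5 and the adhesion gene Pecam1. Pecam1 lost its call without normal replicate 3 (adjusted p = 0.118) and without medium-treated replicate 2 (adjusted p = 0.137). Of 12 markers of Mueller glia and astrocytes, 5 were tested, 2 were higher and 3 lower, with Apoe the DEG, and of 15 photoreceptor markers 13 lay under 1 FPKM in all libraries.

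Further DEGs that are counted in the groups of the report, but not named there, were these. Gdf15, a stress cytokine of the ATF4 list, was downregulated (log2 fold change -1.07). Slc30a2, a zinc exporter, was upregulated (2.79), as were Sult1a1, a sulfotransferase (2.94), and Map3k6, a stress kinase (1.09), both of the glucocorticoid list. Slc30a2 and Sult1a1 passed the low-count filter only through the medium-treated libraries, so they could be called only as higher.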
